A study of Rattus norvegicus with 4 samples.

Results

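The genes described here serve the unfolded protein response and the integrated stress response of NR8383 cells, a macrophage line established from rat lung lavage. They were chosen by name and by role: sensors of endoplasmic reticulum (ER) stress and of other stresses, the transcription factors below them, targets of ATF4, ER chaperones and folding enzymes, and genes of ER-associated degradation. Of the 45 genes named, 43 had at least 1 probe whose RefSeq accession could be matched, out of 16581 genes named on the array, and these 43 were read by 56 probes. No probe was matched for Manf or Derl2, which are not analysed here.

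The cells, at 20 passages, received Printex90, a carbon black powder sold commercially, for 4 h, and the labels put the dose at 0.9 cm2/cm2. The exposure was ALI in the labels' abbreviation. Total RNA from 4 biological replicates, as the series design calls them, was hybridised to 1 Agilent 1-colour array each, and all values below come from these 4 arrays. The control cells of the design were not analysed here. The values below therefore describe exposed cells and measure no effect of the particles. NR8383 is a single established line, grown as a mixture of adherent and floating cells, and stands for alveolar macrophages only to that extent.

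In the unfolded protein response, misfolded protein in the ER activates the sensors PERK, IRE1 and ATF6, which slow translation, splice the Xbp1 message and release a transcription factor, respectively. The integrated stress response joins PERK with other kinases, among them GCN2 and HRI. All of them phosphorylate the translation factor eIF2α and thereby favour translation of ATF4. Macrophages secrete and degrade much protein and rely on this machinery. Because ATF4 is controlled by translation, IRE1 acts by splicing and the kinases by phosphorylation, the activity of the pathway itself was not measured on these arrays, which read total transcript.

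Promoter sequences were set beside the expression values because known elements of both responses lie close to the start of several of these genes. RefSeq windows of the GRCr8 assembly were found for 37 of the 45 genes, and the 250 bases before each listed start were searched on both strands. The ER stress response element, ERSE, which consists of CCAAT and CCACG with any 9 bases between them, is bound by ATF6 together with NF-Y. It was found in 8 of the 37 genes (21.6%), against 21 of 27457 genes in the whole table (0.0765%). The element was first described in promoters of ER chaperone genes, so its presence in such genes is a description and no independent result. One match of each of the 8 genes is given below with 20 bases on either side where the window allows, read in the direction of the gene, with the element in capitals. The matches shown for Calr, Creld2 and Derl3 lie in reverse complement, and Hsp90b1 holds a further match that is not shown.
Hspa5, chr3:38452953-38453011, plus strand: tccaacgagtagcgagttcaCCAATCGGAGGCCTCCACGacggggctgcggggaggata
Hsp90b1, chr7:23012431-23012489, minus strand: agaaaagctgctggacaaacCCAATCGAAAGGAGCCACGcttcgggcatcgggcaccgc
Calr, chr19:40213117-40213173, plus strand: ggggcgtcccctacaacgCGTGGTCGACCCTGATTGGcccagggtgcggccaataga
Canx, chr10:35158049-35158107, minus strand: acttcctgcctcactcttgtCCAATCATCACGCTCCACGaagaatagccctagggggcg
Xbp1, chr14:84604538-84604596, plus strand: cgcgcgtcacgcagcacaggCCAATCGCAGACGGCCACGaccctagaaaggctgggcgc
Dnajc3, chr15:102432514-102432572, plus strand: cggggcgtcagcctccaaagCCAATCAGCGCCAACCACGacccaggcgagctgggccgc
Creld2, chr7:121789219-121789277, plus strand: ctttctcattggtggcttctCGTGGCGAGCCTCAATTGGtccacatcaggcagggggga
Derl3, chr20:12766581-12766639, minus strand: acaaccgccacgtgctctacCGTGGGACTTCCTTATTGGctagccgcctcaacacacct

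Herpud1 and Hyou1 held ERSE-II, which consists of ATTGG and CCACG with any 1 base between them and was found in 14 of the 27457 genes (0.0510%). A core of the C/EBP-ATF response element, CARE, through which ATF4 acts, was searched as TTGCATCA and was found in 199 of the 27457 genes (0.725%). Among the 37 genes it was found in 4, namely Herpud1, Nupr1, Chac1 and Ppp1r15b. Other elements each matched a single gene. TGACGTGG, a form of the unfolded protein response element, lay in Hyou1, where it overlaps an ERSE-II match, and in 163 of all 27457 genes (0.594%). TGACGTCA, the cAMP response element, lay in Ppp1r15a and in 490 of all genes (1.78%). A match is no proof of a working site, and a window without a match shows only that these letters are not in it. The ERSE-II match of Herpud1 and the 4 CARE matches are shown because these genes recur in the results below, again with the element in capitals, which in Ppp1r15b lies in reverse complement.
Herpud1, ERSE-II, chr19:10614801-10614851, minus strand: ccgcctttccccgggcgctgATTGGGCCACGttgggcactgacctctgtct
Herpud1, CARE, chr19:10614864-10614911, minus strand: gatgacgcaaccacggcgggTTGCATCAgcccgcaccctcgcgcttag
Nupr1, CARE, chr1:190645929-190645976, minus strand: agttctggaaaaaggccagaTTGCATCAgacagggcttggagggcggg
Chac1, CARE, chr3:126795944-126795991, plus strand: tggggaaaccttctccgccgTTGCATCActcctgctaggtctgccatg
Ppp1r15b, CARE, chr13:47129802-47129849, plus strand: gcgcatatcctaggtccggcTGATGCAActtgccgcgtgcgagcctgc

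Levels are given as log2 intensity minus the 75th percentile of that array's non-control probes, so that 0 lies at this percentile and 1 unit is a doubling. A level belongs to its probe, and levels of different genes are therefore not ranked. A gene was called detected when a probe of it was well above background on all 4 arrays by the scanner software's flag. Each array detected between 8917 and 9985 named genes, and negative-control spots had a median level between -5.48 and -4.94, with between 0 and 7 of 308 spots per array called well above background. The cells were checked against markers: 11 of 14 macrophage genes were detected, including Cd68 and Csf1r, whereas 0 of 10 lung epithelial genes and 1 of 7 measured fibroblast genes (Dcn) were. Of markers of plasma cells, which have a strong secretory ER, 2 of 7 measured were detected, namely Irf4 and Derl3, the latter also a member here. Prdm1 and Pou2af1 were well above background on 3 arrays each, and Mzb1, Tnfrsf17 and Sdc1 on no array. Of 6 measured lymphocyte genes 3 were detected. All arrays carry the same slide barcode and scan time per the file headers, so neither could be examined as a batch.

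Nearly the whole machinery had a signal. A signal on all 4 arrays was found for 41 of the 43 measured genes (95.3%), compared with 50.8% of all named genes, and each of the 4 arrays detected the same number, 41. By role, this was 4 of 5 sensors, 6 of 6 transcription factors, 8 of 9 ATF4 targets, both subunits of the eIF2α phosphatase, 15 of 15 measured folding genes and 6 of 6 measured degradation genes. Ern1 and Vldlr were the exceptions and were well above background on no array. Of the 56 probes 48 were detected on all 4 arrays, against 49.1% of all named probes. In a bulk sample fewer cells with a transcript and less of it per cell cannot be told apart.

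**Figure D1:**
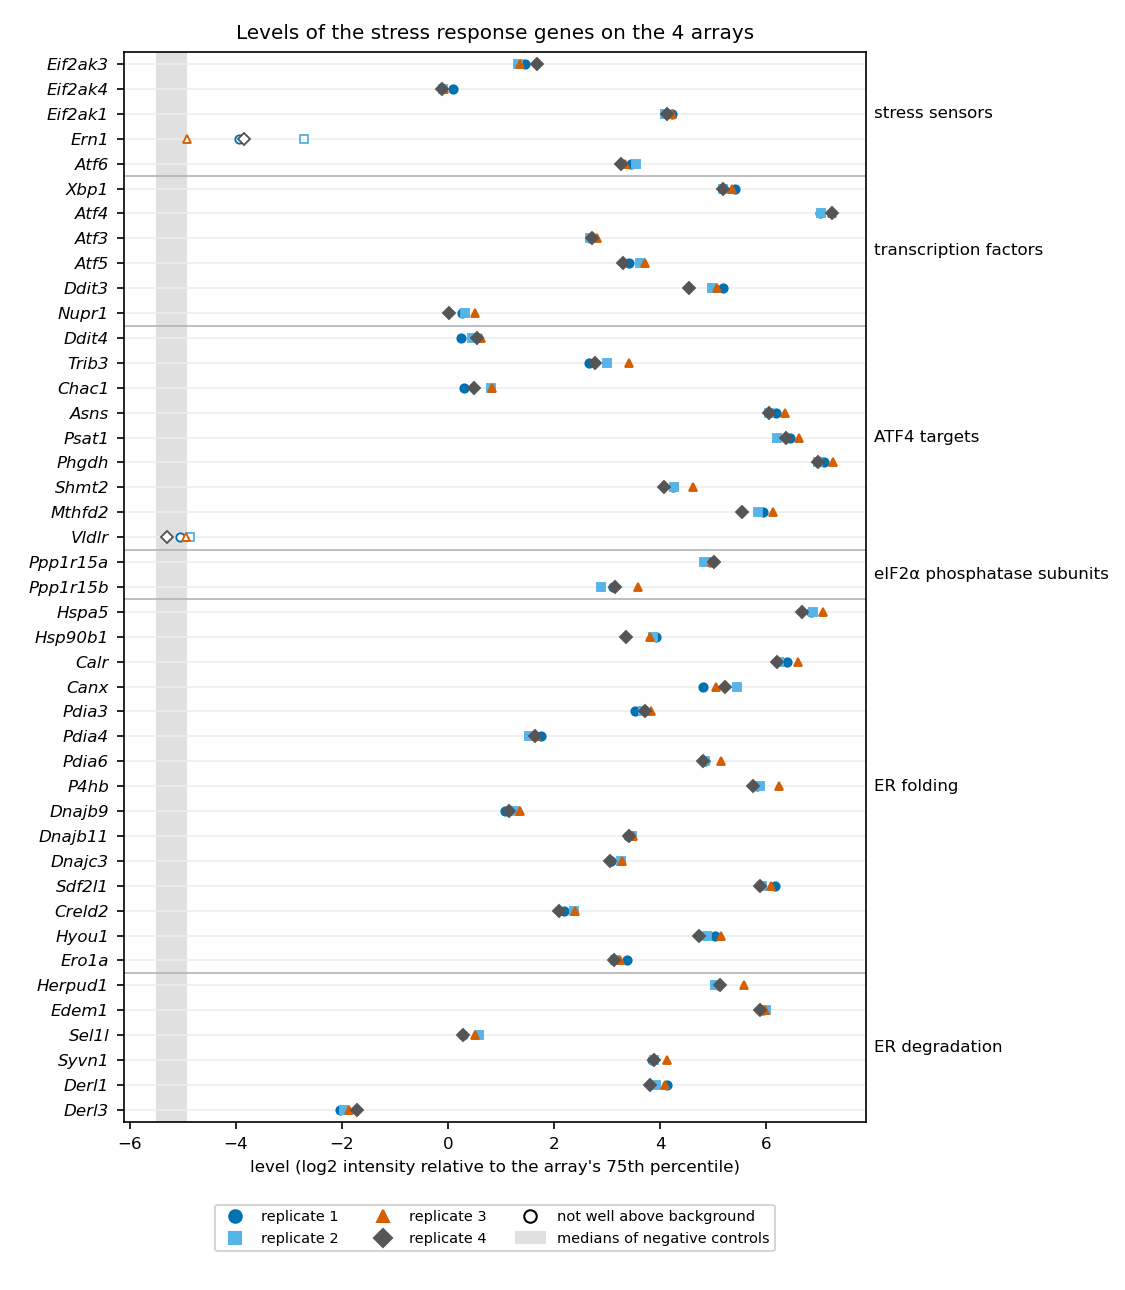
Level of each of the 43 measured genes on each of the 4 arrays, in log2 intensity relative to the array's 75th percentile, grouped by role. Filled symbols are genes detected on all 4 arrays and open symbols genes detected on none. The grey band spans the 4 arrays' medians of the negative-control spots, from -5.48 to -4.94. Vldlr lies in or next to that band and Ern1 between it and -2.71, while the other 41 genes lie above it.

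Among the sensors, 4 of 5 transcripts were measured with close agreement. Eif2ak3, which encodes PERK, had levels of 1.46, 1.31, 1.35 and 1.68 on replicates 1 to 4 (SD 0.16), highest on replicate 4. Eif2ak4 encodes GCN2, the kinase that senses amino acid shortage, and read 0.09, -0.10, -0.07 and -0.11 (SD 0.09). Only replicate 1 lay above 0 for this gene. For Eif2ak1, the gene of the haem-regulated kinase HRI, the values were 4.23, 4.09, 4.23 and 4.13 (SD 0.07), with replicates 1 and 3 slightly above the others. Atf6, whose product is cut in the Golgi to release a transcription factor, gave 3.46, 3.55, 3.34 and 3.26 (SD 0.13). A second probe for another Atf6 transcript read 3.45, 3.39, 3.44 and 3.22, and both were lowest on replicate 4.

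Ern1 encodes IRE1α, the sensor that splices the Xbp1 message. Its single probe read -3.95, -2.71, -4.93 and -3.85 and was well above background on no array, so only a bound exists. The lowest level of any spot called well above background was -3.41, -3.11, -3.29 and -3.79 on the 4 arrays, so that replicate 2 exceeded this value without being called. Its SD of 0.91 was the highest of the 43 genes. Eif2ak3 was detected by 1 of its 2 probes. The other probe, for a different transcript accession, read between -3.71 and -3.38 and was well above background on replicate 4 alone.

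All 6 transcription factors were detected. Xbp1, the factor whose message IRE1 splices, had levels of 5.41, 5.18, 5.36 and 5.19 (SD 0.12). Its splice forms were not told apart by the 1 probe. Atf4, the main effector of the integrated stress response, was read by a probe printed 10 times on each array and gave 7.01, 7.03, 7.25 and 7.24 (SD 0.13). Replicates 3 and 4 thus lay above replicates 1 and 2, by at most 1.18-fold.

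Atf3, a factor induced downstream of ATF4, was among the steadiest genes, with 2.69, 2.68, 2.81 and 2.71 (SD 0.06). Atf5, which also activates stress genes of mitochondria, read 3.41, 3.62, 3.71 and 3.29 (SD 0.19). Ddit3 encodes CHOP, a factor linked to cell death after lasting ER stress. Its levels were 5.19, 4.99, 5.07 and 4.54 (SD 0.28), so that replicate 4 was lowest, 1.57-fold below replicate 1. Nupr1, a stress-induced chromatin protein, was read by 2 probes of 10 spots each. They gave 0.27, 0.33, 0.52 and 0.01 (SD 0.21) and 0.12, 0.16, 0.40 and 0.13 (SD 0.13), both highest on replicate 3.

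The genes listed here as ATF4 targets shared their highest array: all 8 detected members were highest on replicate 3. Their lowest array differed, being replicate 1 for 3 genes, replicate 2 for 3 and replicate 4 for 2. The share of all 8424 detected genes that were highest on replicate 3 was 31.5%, and 40.1% when weighted to the levels of these 8 genes. With normexp background correction of the raw signals 4 of the 8 were highest there, against 21.7% of all detected genes. Scaling to the 75th percentile over detected probes left 6 of the 8 highest there, against 24.7%. The count of 8 holds for the genes listed under this role. In a wider ATF4 list, described below, 10 of 18 detected genes were highest on replicate 3, against a level-weighted share of 33.4%. Of genes listed under other roles, Atf3 was highest on replicate 3, Ddit3 on replicate 1 and Ppp1r15a on replicate 4. Trib3, a pseudokinase that dampens AKT and ATF4 signalling, had levels of 2.66, 3.01, 3.41 and 2.77. Its SD of 0.33 was the largest of the 41 detected genes, and its highest array lay 1.68-fold above its lowest. Chac1, which degrades glutathione, read 0.30, 0.81, 0.82 and 0.48 (SD 0.26), with replicates 2 and 3 close together. Ddit4, an inhibitor of mTORC1 also known as REDD1, gave 0.25, 0.45, 0.62 and 0.55 (SD 0.16) on 1 probe, while its other probe was well above background on no array.

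The other detected targets make amino acids and one-carbon units. Asns, asparagine synthetase, had levels of 6.20, 6.06, 6.35 and 6.06 (SD 0.14). Phgdh, which starts serine synthesis from a glycolytic intermediate, gave 7.09, 6.97, 7.25 and 6.98 (SD 0.13) on its brighter probe of 10 spots. Replicate 3 was higher than the other arrays by little in both. Psat1, the next enzyme of that pathway, read 6.46, 6.22, 6.62 and 6.39 (SD 0.17). Shmt2 and Mthfd2 act in the mitochondrial folate cycle. For Shmt2 the values were 4.24, 4.27, 4.62 and 4.07 (SD 0.23), and for Mthfd2 5.95, 5.84, 6.14 and 5.55 (SD 0.25), both lowest on replicate 4. Vldlr, a lipoprotein receptor that ATF4 can induce, was well above background on no array with either probe, and both had a mean of -5.04, inside the range of the negative-control medians.

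The eIF2α phosphatase is directed by Ppp1r15a (GADD34), the stress-inducible subunit, and by Ppp1r15b, the constitutive one, which both reverse eIF2α phosphorylation. Ppp1r15a had levels of 4.94, 4.83, 4.99 and 5.03 (SD 0.09). Ppp1r15b varied more, with 3.12, 2.89, 3.58 and 3.16 (SD 0.29), and its highest array, replicate 3, lay 1.62-fold above its lowest, replicate 2. No test of this difference in spread was made.

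ER chaperones and folding enzymes were detected without exception among the 15 measured, and 10 of them were highest on replicate 3 and 10 lowest on replicate 4. All detected genes weighted to the levels of these 15 gave shares of 39.3% and 37.4%. Hspa5 encodes BiP, the HSP70 chaperone of the ER that also holds the sensors inactive, and had levels of 6.84, 6.88, 7.07 and 6.68 (SD 0.16). Hsp90b1 encodes GRP94, the ER's HSP90, and read 3.93, 3.86, 3.81 and 3.35 (SD 0.26), with replicate 4 apart from the other arrays. Hyou1, a large chaperone that exchanges nucleotide on BiP, gave 5.04, 4.88, 5.15 and 4.73 (SD 0.18). The lectin chaperones calreticulin and calnexin hold glycoproteins during folding. Calr had levels of 6.39, 6.25, 6.61 and 6.20 (SD 0.18), with replicate 3 on top. Canx went another way, at 4.82, 5.45, 5.06 and 5.23 (SD 0.27), lowest on replicate 1 and highest on replicate 2, and its other probe was well above background on no array.

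The disulfide isomerases were measured with small spread, apart from P4hb. Pdia3, which works with the lectin chaperones, read 3.53, 3.69, 3.83 and 3.71 (SD 0.13). Pdia4 gave 1.76, 1.53, 1.66 and 1.63 (SD 0.09). Pdia6, which also acts on the stress sensors, had levels of 4.84, 4.84, 5.16 and 4.80 (SD 0.16), with replicate 3 alone above the rest. P4hb, the classical protein disulfide isomerase, showed the same pattern at 5.83, 5.89, 6.25 and 5.76 (SD 0.22). For each of Pdia6 and P4hb, 2 of the 10 spots lie in a bright region of replicate 3. Ero1a, the oxidase that recharges these enzymes, gave 3.37, 3.15, 3.24 and 3.13 (SD 0.11), highest on replicate 1.

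Cochaperones of the J-domain family deliver clients to BiP. Dnajb11 had the lowest SD of the 41 detected genes, 0.05, with levels of 3.39, 3.47, 3.49 and 3.42. Dnajb9, a target of spliced XBP1, read 1.07, 1.26, 1.35 and 1.14 (SD 0.12). Dnajc3, known as p58IPK for its inhibition of PERK, gave 3.07, 3.26, 3.29 and 3.05 (SD 0.13). All 3 were highest on replicate 3, though by margins to replicate 2 of under 0.10. Sdf2l1, a partner of Dnajb11, had levels of 6.17, 5.92, 6.09 and 5.89 (SD 0.14). Creld2, an ER stress-inducible folding factor, had levels of 2.18, 2.39, 2.40 and 2.09 (SD 0.15).

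Genes of ER-associated degradation, which returns misfolded proteins to the cytosol for the proteasome, were detected in all 6 measured cases. Herpud1, which organises the degradation complex, had levels of 5.10, 5.04, 5.59 and 5.13 (SD 0.25), and replicate 3 stood apart from 3 close values. Syvn1 encodes HRD1, the ubiquitin ligase of that complex, and read 3.84, 3.88, 4.14 and 3.88 (SD 0.13) with the same shape. Its other probe was well above background on 3 arrays. Sel1l, the partner of HRD1, gave 0.28, 0.59, 0.50 and 0.29 (SD 0.16), so that replicates 2 and 3 lay above replicates 1 and 4.

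Edem1 directs trimmed glycoproteins to degradation, and its 3 probes were all detected. The brightest gave 5.946, 6.004, 5.976 and 5.894 (SD 0.05), a range of 1.08-fold. Derl1 and Derl3 encode derlins, membrane proteins of the export channel. Derl1 had levels of 4.13, 3.91, 4.10 and 3.81 (SD 0.15). Derl3, at -2.03, -1.96, -1.87 and -1.71 (SD 0.14), was detected by 1 probe and by no array with the other.

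**Figure D2:**
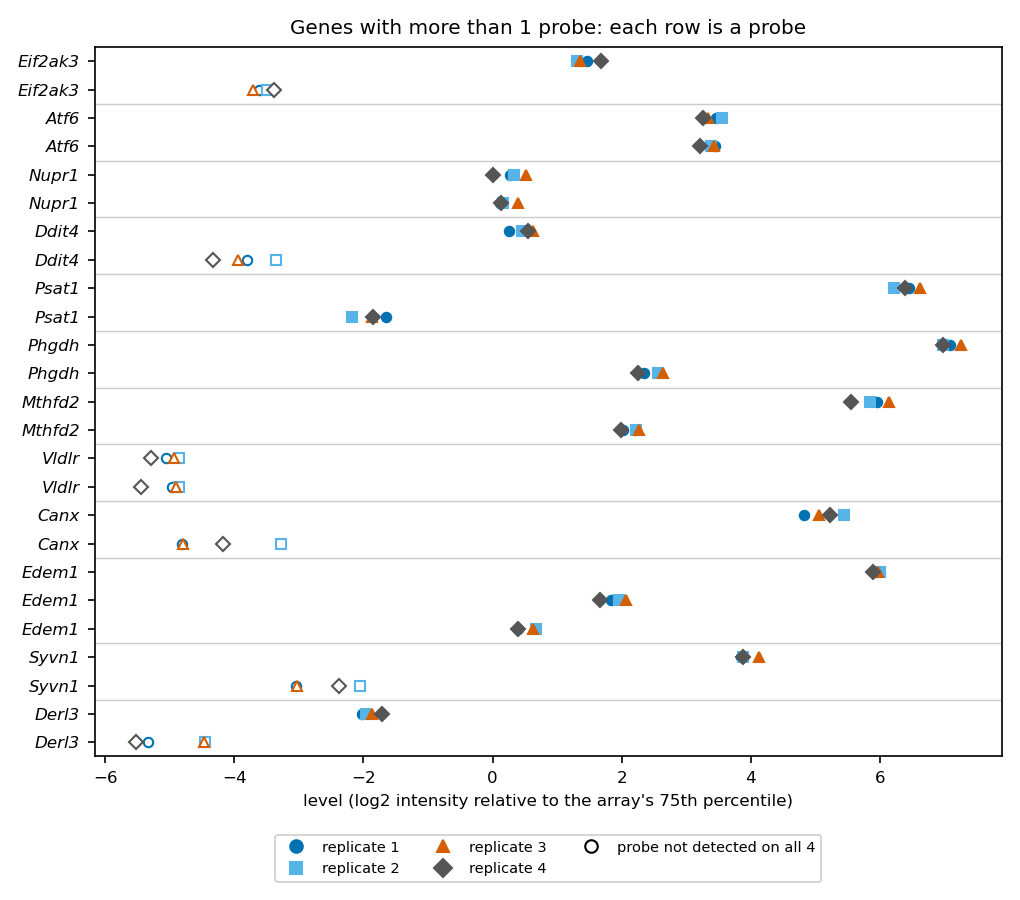
Levels of the 12 genes with more than 1 probe, each row a probe and each symbol an array, in log2 intensity relative to the array's 75th percentile. Open symbols mark probes not detected on all 4 arrays. The probes of Atf6, Nupr1 and Vldlr lie close together, whereas 1 probe of Canx, Ddit4, Eif2ak3, Syvn1 and Derl3 was not detected on all 4 arrays although the other was.

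Different probes of a gene differed in level in most cases. Of the 43 genes, 31 had a single probe and 12 had more than 1. In 6 of these 12 at least 1 probe was not detected on all 4 arrays: Eif2ak3, Ddit4, Canx, Syvn1 and Derl3 with 1 probe each and Vldlr with both. Requiring detection of every probe left 36 of the 43 genes. Psat1 is an example within detected probes, since its probes for the same transcript had means of 6.42 and -1.89. Those of Phgdh had means of 7.08 and 2.45, and those of Mthfd2 5.87 and 2.13. Probe positions and sequences were not used here, and why the probes differ was not tested.

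Whether the probes of a gene order the arrays alike bears on how far the order can be read. In 3 of 6 genes with at least 2 probes detected on all arrays, namely Mthfd2, Nupr1 and Phgdh, all probes were highest on the same array, replicate 3. Over all 1575 genes with such probes the share with a common highest array was 32.3%. Atf6, Edem1 and Psat1 were the 3 genes whose probes differed. Psat1 was highest on replicate 3 by the brighter probe and on replicate 1 by the dimmer, whose values were -1.65, -2.18, -1.87 and -1.86.

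The SD over the 4 arrays was at most 0.33 for the detected genes of these responses. The median SD of the 41 detected genes was 0.153, or 1.11-fold, against 0.165 over all 8424 detected genes, and the lowest was 0.05. SD depends on level: the median over all detected genes was 0.236 below a level of 0 but 0.142, 0.135 and 0.136 at levels of 2 to 4, 4 to 6 and above 6, which hold 13, 12 and 7 of the 41 genes. None of the 41 had an SD above 0.5, which 2.43% of all detected genes had, and none exceeded the 95th percentile of all detected genes, 0.41. The median range from the lowest to the highest array was 1.25-fold. By role, the median SD was 0.11 for the 4 detected sensors, 0.16 for transcription factors, 0.20 for ATF4 targets, 0.19 for the 2 phosphatase subunits, 0.15 for folding genes and 0.14 for degradation genes. No test between the roles was made. With each array's median subtracted in place of its 75th percentile the median SD of the 41 genes was 0.443.

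**Figure D3:**
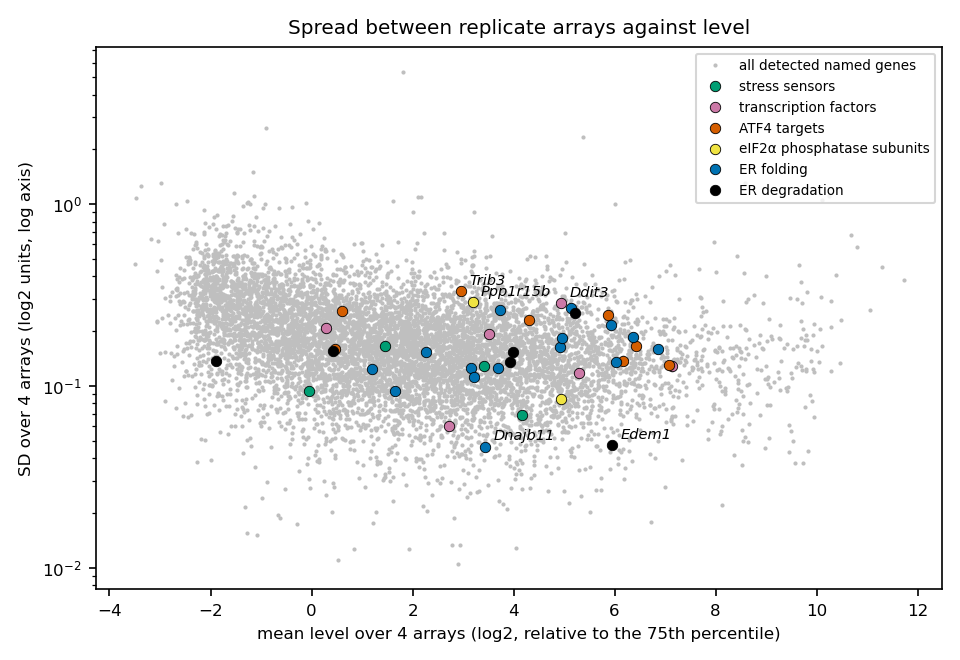
SD over the 4 arrays, on a log axis, against the mean level for all 8424 detected named genes (grey) and the 41 detected genes of the stress responses (coloured by role). The coloured points lie between 0.05 for Dnajb11 and 0.33 for Trib3, within the cloud of all genes.

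Many of these genes, though not all, were highest on the same array. Of the 41 detected genes 25 were highest on replicate 3 (61.0%), against 31.5% of all detected genes and 38.0% when weighted to the levels of the 41, and 0 were lowest there, against 22.5%. On that array 37 of the 41 lay above their own 4-array mean, against 56.3% of all detected genes. In turn 19 were lowest on replicate 4, against 29.8% of all detected genes, and 34 lay below their own mean there, against 57.1%. Replicates 1 and 2 held the highest value of 9 and 4 genes, against 31% and 17.6% of all detected genes, and replicate 4 that of 3, against 20%. A single array stood apart by Dixon's ratio, the gap to the nearest array over the whole range, in Pdia6, Herpud1 and Syvn1, which are 3 of the 41 genes, against 5.35% of all detected genes.

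In size the shift was small. The median deviation of the 41 genes from their own mean was -0.02, -0.04, 0.13 and -0.10 on replicates 1 to 4, while that of all detected genes was 0.03, -0.02, 0.03 and -0.03. Relative to all detected genes the stress genes thus lay 0.10 higher on replicate 3 and at -0.07 on replicate 4. By role, the median deviation on replicate 3 was 0.21 for the 8 ATF4 targets, 0.12 for the 6 transcription factors, 0.13 for the 15 folding genes, 0.10 for the 6 degradation genes and -0.04 for the 4 sensors. For the 2 phosphatase subunits it was 0.22. None of the 4 sensors and 2 of the 6 degradation genes were highest on replicate 3, the latter against a level-weighted share of 34.4%.

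Level and background treatment moved with this order. Among all detected genes the share highest on replicate 3 was 19.6% for levels below 0 and 47.8% for levels above 6, and 46.3% of the 41 genes but 22.3% of all detected genes had levels above 4. Weighting all genes to the levels of the 41 gave a share of 36.3% for the lowest value on replicate 4. After normexp correction of the raw signals 16 of the 41 were highest on replicate 3, against 21.7% of all detected genes, and 7 were lowest on replicate 4, against 22.6%. The deviation on replicate 4 was then 0.06, with the opposite sign. Relative to all detected genes the 41 genes lay above 0 on replicate 3 in each alternative run that kept that array, from 0.04 to 0.13. Bright regions of an array held spots of some of these genes. Xbp1, Syvn1 and a dimmer probe of Edem1 had their single spot in one. For 1 probe each of Atf4, Nupr1, Pdia6 and P4hb, 1 or 2 of the 10 spots on an array lay in one. With all such regions left out, 28 of 39 remaining genes were highest on replicate 3, against 41% of all detected genes in that run. What sets the order was not tested.

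**Figure D4:**
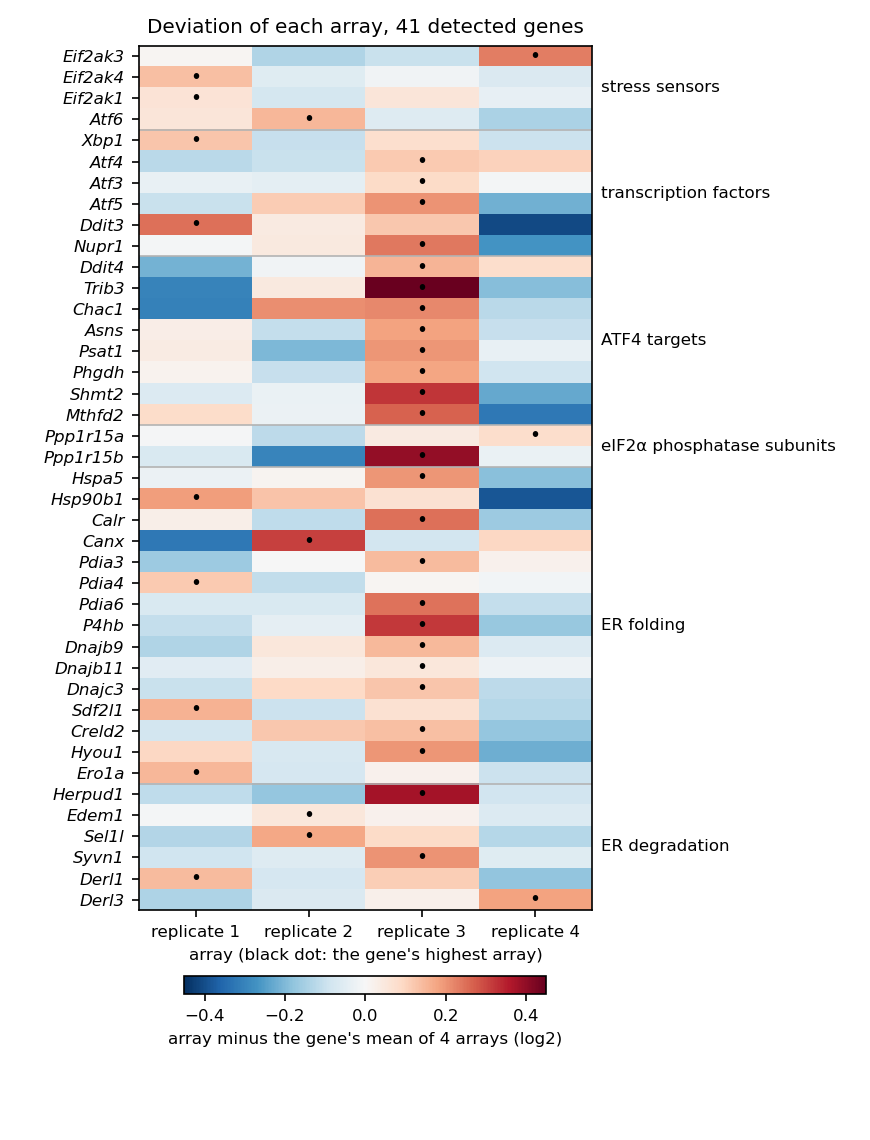
Deviation of each array from the gene's mean of 4 arrays, in log2 units, for the 41 detected genes grouped by role. Red is above and blue below the mean, and a dot marks the gene's highest array. Replicate 3 carries the dot in 25 of 41 genes and in 8 of 8 ATF4 targets, and replicate 4 is mostly blue.

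Probes printed 10 times on every array show how exactly 1 array is read. Of the 1067 such detected probes 8 belong to 7 of these genes: Atf4, Nupr1 (2 probes), Hspa5, Pdia6, P4hb, Ero1a and Phgdh. The SD of single spots within an array was 0.135 in the median of the 8 probes, and the SD between the array means was 0.147. Since 7 to 10 spots were averaged per array, the SD between arrays was 3.22 times the standard error of an array's mean in the median of the 8 probes, against 3.28 for all 1067. For Phgdh the kept spots of replicate 3 began at 7.20, above the highest kept spot of every other array, 7.18. Those of P4hb on replicate 3 began at 6.06, just above the highest spot elsewhere, 6.05. Of the 10 spots printed for P4hb on that array, 2 lie in a bright region. Flagged spots had been left out before, so that replicate 3 kept 7 of 10 spots for Phgdh and 8 of 10 for P4hb. How often spots separate in this way over the 1067 probes was not counted. For Hspa5, replicate 3 had its spots between 6.96 and 7.18 and replicate 4 between 6.53 and 6.91. In Atf4 the spots of replicate 4 ranged from 7.04 to 7.46 and overlapped those of replicate 1, which reached 7.39. Spots of one array share its RNA and its hybridisation, so they measure the reading of that array and not the culture.

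**Figure D5:**
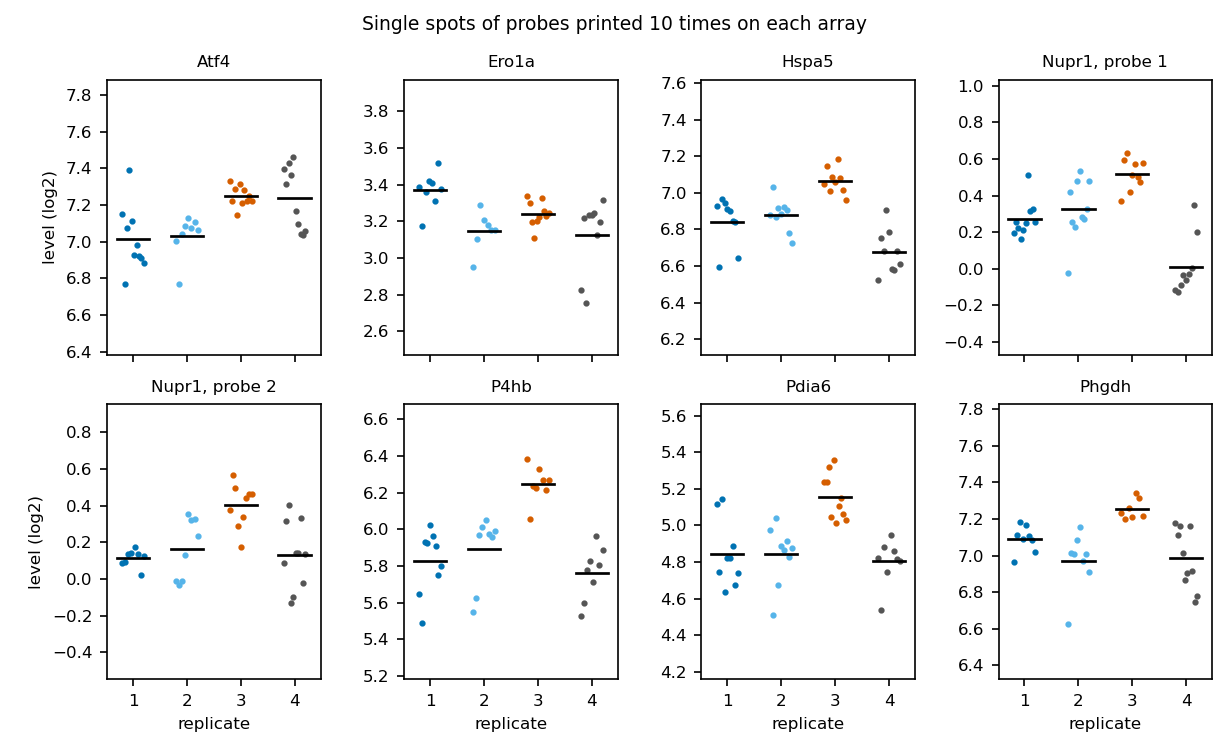
Single spots (points) and their mean (bar) for the 8 probes printed 10 times on each array, by replicate, in log2 intensity relative to the array's 75th percentile. Each panel spans the same height. In 6 of the 7 genes replicate 3 has the highest mean, against 31.5% of all detected genes, and in Ero1a replicate 1 does.

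Genes that hold the promoter elements shown above were all detected. The 8 genes with an ERSE had SDs from 0.12 to 0.27, 4 of them were highest on replicate 3 and 5 lowest on replicate 4, against 31.5% and 29.8% of all detected genes, so that the first count is close to the background. Their median deviation on replicate 3 was 0.10, against 0.03 for all detected genes. All 4 genes with the CARE core, namely Herpud1, Nupr1, Chac1 and Ppp1r15b, were highest on replicate 3, against the same 31.5%, with a median deviation of 0.30. Of the 41 detected genes, to which these belong, 61.0% were highest there. So were all 8 detected ATF4 targets, of which the core was found only in Chac1. These are descriptions of 8 and 4 genes on 4 arrays, and no test was made.

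A wider set of genes of the same pathways was looked at by list. Of 120 such genes 110 were measured and 98 were detected on all 4 arrays (89.1%), against 50.8% of all named genes. All 13 aminoacyl-tRNA synthetases, which ATF4 raises under amino acid shortage, were detected, with a median SD of 0.10. The wider ATF4 list gave 18 of 21 measured genes, and the wider sensing list, with eIF2 and eIF2B subunits, also 18 of 21. Further folding and translocation genes were detected in 27 of 32 cases and further degradation genes in 22 of 23. On replicate 3 the highest value fell in 46 of the 98 genes (46.9%), against a share of 36.8% of all detected genes weighted to their levels. For the wider ATF4 list this was 10 of 18, against a share of 33.4% weighted in the same way. For the synthetases it was 8 of 13, against 40.2%.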

How the data were processed

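The authors deposited linear spot intensities. The submitters' processing notes name Agilent Feature Extraction 11.0.1.1, and per the file headers it subtracted background and spatial trend within each array. Arrays were not scaled to each other. The flags and control types used here are also the authors' deposited scanner output, other than measurements. No gene names are in the files, so accessions were matched without version to RefSeq genes of GRCr8, which named 21109 of 45598 probes. Flagged spots were left out (750 to 1551 per array), log2 signals were averaged per probe, and the array's 75th percentile was subtracted. A gene's level is that of its probe with the highest mean. Values are means over 4 arrays with SD (n = 4), and this number limits the precision. With 1 group there was no comparison and no test.

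Members and gene lists were chosen with earlier results of these data known. All members are named with values, and of the wider lists genes detected on no array or with an SD above 0.5. Rnf139 and Vcp are named for their Dixon's ratio. The alternatives tried were a laxer detection flag, detection on 3 of the 4 arrays or by every probe, flagged spots kept, other scalings, the mean of all probes, no filter, bright regions left out (blocks of 16 rows and 8 columns where over 10% of spots of unnamed probes exceed every other array by 1 log2 unit), and leaving out each replicate. Normexp with an offset of 50 was run on median signals in limma 3.58.1 (R 4.3.3), chosen after the data were seen because the files used hold no mean signal. The level and spread calculations were tested on simulated data, in Python 3.11.15 with pandas 2.3.3 and numpy 2.4.6.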

Additional observations from a re-analysis of the deposited data

Results flagged for a closer look

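In 3 members 1 array stood apart from the other 3, by Dixon's ratio of the gap to the range, which was above its 95% critical value for 4 samples. The ratio was 0.885 for Pdia6, 0.874 for the brighter probe of Syvn1 and 0.838 for Herpud1, and in each the array that stood apart was replicate 3, above the others. By chance about 1 in 20 groups of 4 is marked, and 5.35% of all detected genes were. For Pdia6, 2 of 10 spots on replicate 3 lie in a bright region of that array, and for Herpud1 none do. The single spot of that Syvn1 probe lies in a bright region of replicate 2.

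Cebpg, a partner of ATF4 from the wider list, had a ratio of 0.842. Its 1 probe read 3.67, 3.50, 3.80 and 1.87, so that replicate 4 stood low. Its spot lies in no bright region. Higher ratios occurred in the wider degradation list for Rnf139, 0.962, and Vcp, 0.889, in both with replicate 3 above the other arrays.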

How the results depend on the processing

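The number of genes detected on all 4 arrays ranged from 36 to 41 over the alternatives, with 41 in each of the runs without 1 replicate, and no role's count moved by over 1.5 times. A gene detected on all 4 arrays is also detected on any 3, so leaving out 1 replicate could not lower the count. The median SD was 0.443 with the array median and otherwise lay between 0.124 and 0.173. It ranged from 0.124 to 0.159 without 1 replicate. The median deviation of the genes on replicate 1 was 0.015 with flagged spots kept and 0.065 with the array median, against -0.025 as reported. With the array median it was -0.307, 0.565 and -0.356 on replicates 2 to 4, and 41 genes were highest on replicate 3, as were 85.3% of all detected genes. With normexp the deviation on replicate 4 was 0.064, and relative to all detected genes 0.017. Then 16 genes, 4 of them ATF4 targets, were highest on replicate 3, and 7 were lowest on replicate 4. With the 75th percentile over detected probes 11 of 41 genes were lowest on replicate 4, against 20.8% of all detected genes. In that run 20 of 41 were highest on replicate 3, as were 6 of 8 ATF4 targets, against 24.7% of all detected genes. With the mean over all probes the genes lay 0.012 above all detected genes on replicate 2. The cause of these changes was not tested.

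Without 1 replicate in turn, the median deviation ranged from -0.060 to 0.014 on replicate 1, from -0.075 to 0.012 on replicate 2, from 0.118 to 0.144 on replicate 3 and from -0.125 to -0.050 on replicate 4. Relative to all detected genes the deviation on replicate 2 ranged from -0.044 to 0.021. With 3 arrays left, between 27 and 33 genes were highest on replicate 3, against 37.5% to 42.7% of all detected genes, and 8 of 8 ATF4 targets without replicate 1, 2 or 4. A gene highest there among 4 arrays stays highest among 3, so these counts could not fall and test nothing. Levels stayed within 1 SD for 43 of 43 genes under quantile normalization, for 34 with the mean over all probes, for 3 under normexp, and for 0 with the array median or the 75th percentile over detected probes, which move the zero of the scale. No paired analysis was possible because there is only 1 group. No value has a test behind it, and slide, scan and exposure cannot be examined with 1 group on 1 slide.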

Other observations

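Of the wider lists, 6 measured genes were well above background on no array. Mbtps2 encodes a protease that frees ATF6, Creb3l3 a related factor, Stc2 and Fgf21 secreted proteins that ATF4 can induce, and Ero1b and Pdia5 folding enzymes. Fgf21 read -4.87, -4.80, -4.97 and -4.66 on replicates 1 to 4, near the negative-control medians.

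Among detected genes of these lists 2 had an SD above 0.5. One is Cebpg, described above. The other is Eif2s3, a subunit of eIF2, at -0.29, -0.77, 0.75 and -0.61 by the probe with the higher mean. The spot of that probe lies in a bright region of replicate 3, and the gene's other probe read -0.40, -0.83, -0.99 and -0.60, lowest on that array. Gdf15, a secreted stress factor, read 3.70, 4.45, 4.85 and 4.02 with an SD of 0.50 and was named after its values were seen.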
